A study of Mus musculus with 15 samples.

Results

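The renin-angiotensin system of the mouse thoracic aorta was followed in 6 genes, Ren1, Agt, Ace, Agtr1a, Agtr2 and Mas1, chosen by symbol from the 37681 rows of the gene count table. Each symbol had 1 row, so 6 of 6 were found, and 5 of 6 passed the filter on low counts that left 15134 genes for testing; Agtr2 did not pass. The groups were celecoxib (30 mg/kg in PEG-400), rofecoxib (10 mg/kg in PEG-400) and vehicle (PEG-400 alone), given in 100 microlitres by gavage. All mice were wild-type C57BL/6 males aged 10 to 12 weeks, housed with light and dark phases of 12 hours each, and all were killed 6 hours after the dose at Zeitgeber hour 11. Each group held 5 libraries, each from its own animal per the series text. Celecoxib is a diaryl pyrazole with a sulfonamide and rofecoxib a diaryl furanone with a methylsulfone; both inhibit cyclooxygenase-2. Their doses differed, so the comparison between them is between dosed groups and not between compounds at a matched dose.

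Renin, an aspartyl protease made chiefly by juxtaglomerular cells of the kidney, cuts angiotensinogen from the liver and other tissues into angiotensin I. Angiotensin-converting enzyme, held on the surface of endothelium, turns angiotensin I into angiotensin II, which contracts vascular smooth muscle through type 1 receptors. Rodents have a pair of type 1 receptor genes, Agtr1a and Agtr1b, whereas the type 2 receptor, Agtr2, and the receptor Mas1 for angiotensin-(1-7) are known for opposing actions in vessels. Prostaglandins made by cyclooxygenase-2 in the kidney are known to stimulate renin release there; the aorta is a target of the system and not its main source.

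Counts per library lay between 30937046 and 30967115, a spread of 0.0971%. The depth before any step that brought libraries to so similar a total is unknown. Levels below are in CPM, counts scaled to a common library size. The label of the tissue was checked with markers: 8 of 8 smooth muscle markers were tested, with summed levels of 37097 to 53063 CPM, and 9 of 9 endothelial markers, with 512 to 1019 CPM. Of the kidney markers 0 of 5 passed the filter, and Umod, Nphs1 and Slc34a1 had 0 counts in all 15 libraries. Of the liver markers 0 of 5 passed, with at most 1.04 CPM summed. Fat came with the vessel: the white and general adipocyte markers summed to 734 to 1724 CPM in celecoxib, 1065 to 2493 CPM in rofecoxib and 1395 to 3278 CPM in vehicle. The brown adipocyte markers summed to 68.9 to 530 CPM in celecoxib, 191 to 460 CPM in rofecoxib and 387 to 1601 CPM in vehicle, with median log2 fold changes of -1.31 and -1.25 against vehicle, 0 of 6 positive and 0 of 6 called in each. With the mean level of the white and general adipocyte markers as a covariate, 0 of 5 members were called in each comparison. For celecoxib against vehicle that fit called 0 of 15134 genes. At an unadjusted p under 0.05 it held 1 of 5 members and 1182 genes. In bulk tissue, fewer cells of a type and less RNA per cell cannot be told apart.

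Ace dominated the set. Per kilobase of exon it averaged 82.5 CPM over the 15 libraries, at percentile 97 of the genes tested. Agtr1a averaged 1.39 CPM per kilobase, Agt 0.630, Ren1 0.458, Mas1 0.135 and Agtr2 0.0367. Of close relatives outside the 6, the second type 1 receptor gene Agtr1b stood at 1.92 CPM per kilobase and the prorenin receptor Atp6ap2, also a subunit of the vacuolar proton pump, at 35. In these aortas the transcripts of the enzyme that makes angiotensin II were thus abundant per length, while those of renin, its substrate and the receptors were scarce.

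The 6 genes also differed in how much animals differed from each other. The biological coefficient of variation, the spread between animals of a group beyond counting error, had a median of 0.135 over all genes. It was 0.881 for Ren1, at percentile 98.3 of the genes tested, 0.609 for Agt, 0.594 for Agtr1a, 0.348 for Mas1 and 0.187 for Ace. Atp6ap2, at 0.0577, was among the steadiest genes, at percentile 0.436. The share of variance in log2 CPM that lay between the 3 groups was 20.0% for Agt, 15.9% for Ren1, 13.4% for Ace, 1.95% for Agtr2, 1.59% for Agtr1a and 1.38% for Mas1, against a median of 13.6% over all genes.

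No member passed the threshold, an adjusted p under 0.05 in edgeR's quasi-likelihood test over all genes, in any comparison. For celecoxib against vehicle 0 of 5 tested members passed, against 0% of all genes tested; at an unadjusted p under 0.05 the counts were 0 of 5 members and 1896 genes, or 12.5%. With rofecoxib against vehicle 0 of 5 passed, against 0% of all genes; unadjusted, 0 of 5 members and 784 genes, or 5.18%. For celecoxib against rofecoxib 0 of 5 passed, against 0% of all genes; unadjusted, 0 of 5 members and 1053 genes, or 6.96%. The groups overlapped for all 6 members in each comparison, while over all genes they did not overlap for 1.3% between celecoxib and vehicle, 1.16% between rofecoxib and vehicle, and 1.32% between the dosed groups. DESeq2, which gave an adjusted p to 3, 5 and 4 of the 5 members in the 3 comparisons, and limma-voom called 0 members in each. DESeq2 gave 1 member an unadjusted p under 0.05, in celecoxib against rofecoxib, where 1136 of the 15134 genes kept had one. With limma-voom no member had one, against 1874, 780 and 1009 genes in the 3 comparisons. Over all genes DESeq2 called 126, 0 and 19 in the 3 comparisons, in the order above, and limma-voom 0 in each. Both comparisons against vehicle share the vehicle libraries. The intervals below give the sizes of change left possible by the fit of all 15 libraries, which for Ren1, Agt and Agtr1a are wide. Their spread is estimated over all 3 groups, so it also depends on the group not compared.

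**Figure D1:**
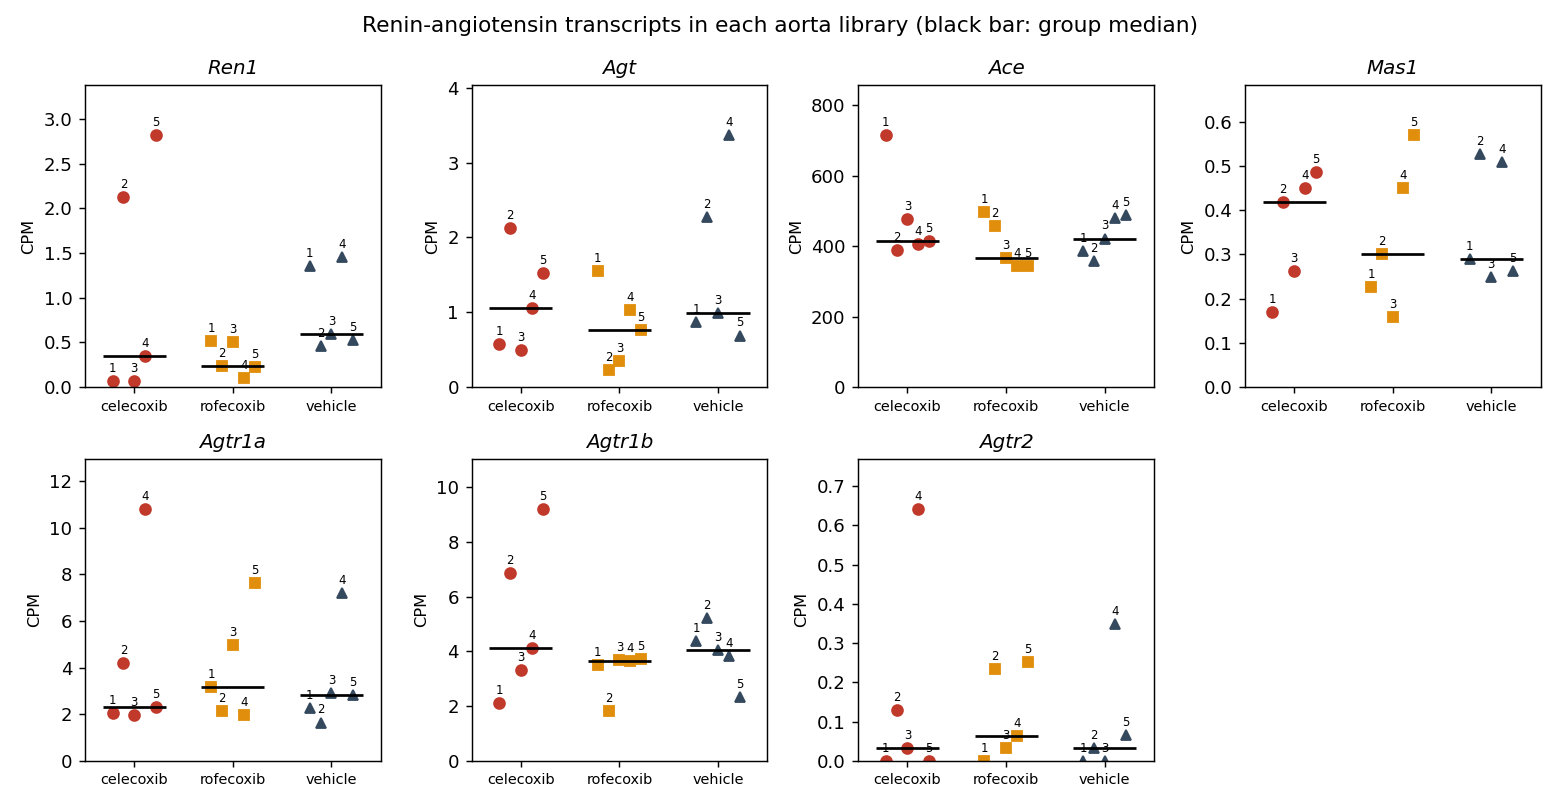
Level of 7 renin-angiotensin genes in CPM (vertical axes, linear from 0) in the 5 celecoxib, 5 rofecoxib and 5 vehicle libraries; each point is 1 library, numbered by replicate, and the bar is the group median. Ren1 reached 2.12 and 2.82 CPM in celecoxib 2 and 5, Ace 715 CPM in celecoxib 1, and Agtr1a 10.8, 7.62 and 7.21 CPM in celecoxib 4, rofecoxib 5 and vehicle 4.

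Renin had the largest biological coefficient of variation of the 5 members tested, but its spread was the widest of these only in celecoxib. The SD of its CPM was 119% of the mean in celecoxib, 59.4% in rofecoxib and 55.3% in vehicle. For Agt these were 59.0%, 68.1% and 70.2%, and for Agtr1a 88.6%, 59.6% and 65.4%. Ren1 (chromosome 1, positions 135246885 to 135257104 in mm9, the build of the files) had 2, 66, 2, 11 and 87 counts in celecoxib 1 to 5. In rofecoxib 1 to 5 it had 16, 7, 16, 3 and 7 counts, against 42, 14, 19, 46 and 16 counts in vehicle 1 to 5. Celecoxib thus held both the highest libraries of the series, 5 and 2, and the lowest, 1 and 3, and its values enclosed those of vehicle. All 5 rofecoxib libraries lay below the vehicle median, and the groups overlapped. C57BL/6 mice carry a single renin gene, and Ren2 had no row.

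Ren1 averaged 1.09 ± 1.29 CPM in celecoxib, 0.314 ± 0.187 CPM in rofecoxib and 0.877 ± 0.485 CPM in vehicle (SD, n = 5 each). Its log2 fold change was 0.31 ± 0.81 (SE) for celecoxib against vehicle, with a 95% interval of -1.42 to 2.04 and an edgeR adjusted p of 0.908. Without celecoxib 5 it was -0.41, and without celecoxib 2 it was -0.08, so those libraries set its sign. For rofecoxib against vehicle it was -1.47 ± 0.87 (interval -3.32 to 0.39, edgeR adjusted p = 1). That SE draws on all 15 libraries, celecoxib included. When only rofecoxib and vehicle were fitted the value was -1.46 ± 0.48 (edgeR adjusted p = 0.621). On the mean log2 CPM, an exact two-sided permutation test of that comparison gave p = 0.0317, which was 0.571 after Benjamini-Hochberg adjustment over the 18 such tests of members; the smallest p that 5 against 5 allows is 0.00794. For celecoxib against rofecoxib the log2 fold change was 1.78 ± 0.87 (interval -0.08 to 3.63, edgeR adjusted p = 0.707), with 3 of 5 celecoxib libraries above the rofecoxib median; without celecoxib 5 it was 1.05, and limma-voom gave 0.63.

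Angiotensinogen, the only known precursor of the angiotensins, was scarce and uneven. Agt (chromosome 8, 127080232 to 127093808, mm9) had 17, 66, 15, 33 and 47 counts in celecoxib 1 to 5. Rofecoxib 1 to 5 had 48, 7, 11, 32 and 24 counts, against 27, 69, 32, 106 and 21 counts in vehicle 1 to 5. Vehicle 4 and 2 and celecoxib 2 were the highest libraries and rofecoxib 2 the lowest, and all groups overlapped. Means were 1.15 ± 0.681 CPM in celecoxib, 0.783 ± 0.533 CPM in rofecoxib and 1.64 ± 1.15 CPM in vehicle (SD, n = 5 each). The log2 fold change was -0.50 ± 0.56 for celecoxib against vehicle (interval -1.70 to 0.70, edgeR adjusted p = 0.768). For rofecoxib against vehicle it was -1.06 ± 0.57 (interval -2.28 to 0.16, edgeR adjusted p = 0.990), and without vehicle 4 it was -0.62. For celecoxib against rofecoxib it was 0.56 ± 0.57 (interval -0.67 to 1.79, edgeR adjusted p = 0.857), with 0.22 without celecoxib 2 and 0.96 without rofecoxib 1. Without vehicle 4 the celecoxib value against vehicle was -0.06. Adipocytes are a known source of angiotensinogen; with the mean level of the adipocyte markers as a covariate, the value was -0.10 ± 0.68 for celecoxib against vehicle, -0.91 ± 0.59 for rofecoxib against vehicle and 0.81 ± 0.62 between the dosed groups. The r of Agt with those markers was 0.29 (rho 0.25, adjusted permutation p 0.640 for r). Without vehicle 4 and rofecoxib 1, the libraries farthest from the median of the markers, r was -0.10.

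**Figure D2:**
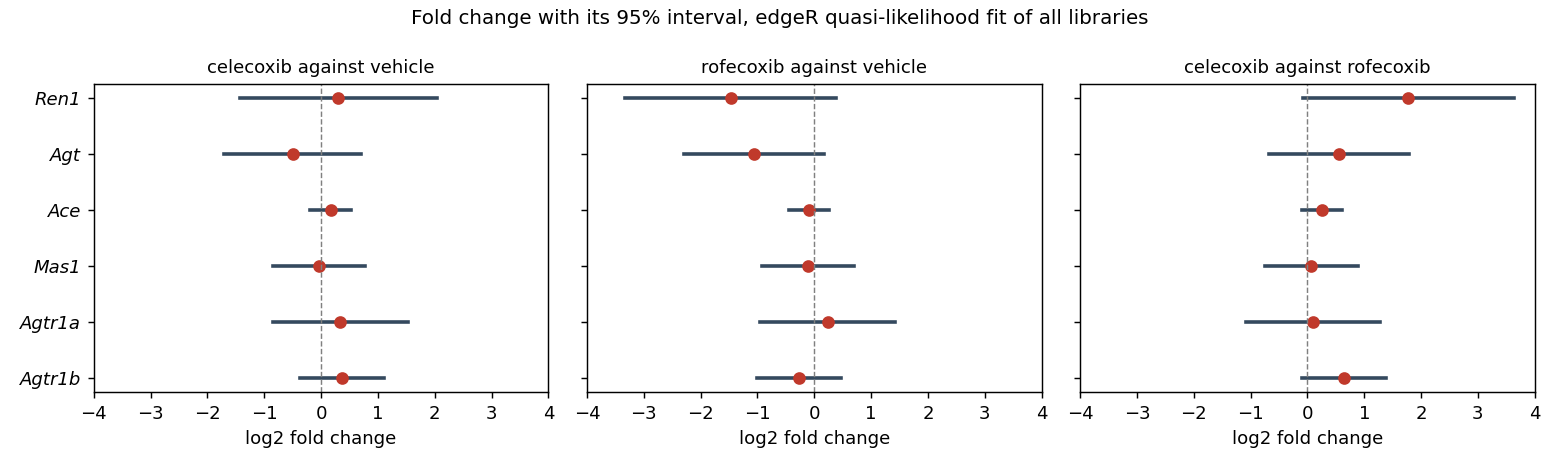
Log2 fold change (horizontal axes) of 5 members and Agtr1b in the 3 comparisons; points are edgeR estimates and lines their 95% intervals, with the first-named group on top of each ratio. All intervals come from the fit of all 15 libraries and include 0. Those of Ace are the narrowest and those of Ren1 the widest, from -3.32 to 0.39 for rofecoxib against vehicle.

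Ren1, Agt and Agtr1b are shown by sequence because their start sites hold the same letters in nearly the same place; whether their transcripts vary together was examined beside this, and of the pairs among them only Ren1 with Agtr1b passed, on r alone. Over 21 pairs among the 6 members and Agtr1b, levels in log2 CPM gave Pearson r = 0.70 and Spearman rho = 0.65 for Ren1 with Agtr1b over 15 libraries (permutation p adjusted over the pairs 0.0421 for r and 0.108 for rho; r = 0.60 without the 2 libraries farthest from the median). For Agt with Agtr1b r was 0.65 and rho 0.68 (adjusted permutation p 0.0595 and 0.108), and for Agt with Ren1 r was 0.58 and rho 0.55 (adjusted 0.103 and 0.173). Mas1, which lacks those letters, gave values of like size, with r = 0.60 for Agt and 0.52 for Agtr1b (adjusted permutation p 0.0987 and 0.111). Ace gave negative values of like size, with r = -0.54 for Mas1 and -0.53 for Agtr1b (adjusted permutation p 0.111 for each). With group means removed these were -0.61 and -0.75. With group means removed r was 0.72 for Ren1 with Agtr1b, close to the value over all libraries. Celecoxib 5 and 2 were highest in both Ren1 and Agtr1b. RefSeq promoter entries (GRCm38.p6) were found for 5 of the 6 members and for Agtr1b, with none for Agtr1a. The 100 bases up to each start are printed 5′ to 3′ on the gene's strand, with a TATAAA match in capitals.
Ren1, chromosome 1, 133350574 to 133350673, plus strand: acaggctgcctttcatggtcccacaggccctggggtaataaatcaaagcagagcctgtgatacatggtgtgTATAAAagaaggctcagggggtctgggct
Agt, chromosome 8, 124569707 to 124569806, minus strand: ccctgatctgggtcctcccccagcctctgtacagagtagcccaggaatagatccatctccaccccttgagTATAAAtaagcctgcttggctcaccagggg
Agtr1b, chromosome 3, 20367178 to 20367277, minus strand: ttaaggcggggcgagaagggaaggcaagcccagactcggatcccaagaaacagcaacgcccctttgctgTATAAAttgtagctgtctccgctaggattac
Ace, first start, chromosome 11, 105967848 to 105967947, plus strand: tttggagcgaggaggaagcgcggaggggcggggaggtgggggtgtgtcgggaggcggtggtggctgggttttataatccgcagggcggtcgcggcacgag

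The match began 29 bases before the start in Ren1, 30 in Agt and 31 in Agtr1b, on the strand of the gene. TATAAA, the core letters of the TATA box, was searched on both strands in the 250 bases before each start. It lay on the gene's strand in 7.59% of 32851 promoters and on either strand in 12.4%. The first start of Ace held it on the other strand only, 31 bases before the start, and the second start of Ace, Agtr2 and Mas1 did not hold these letters. Only the exact letters were searched. Agtr2 held the variant TATATAA in the 100 bases before its start. The first start of Ace held the letters TATAAT on the gene's strand, overlapping its match on the other strand. Variants were not counted. AGAACA, the conserved side of the glucocorticoid receptor element, was in none of the 250-base windows of these genes, against 8.58% of promoters on the gene's strand and 16.1% on either. A match describes the letters and does not show binding.

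Ace, the converting enzyme, differed in a single library. It (chromosome 11, 105829057 to 105851480, mm9) stood at 715, 388, 477, 405 and 415 CPM in celecoxib 1 to 5. In rofecoxib 1 to 5 it had 496, 458, 366, 343 and 342 CPM, against 386, 358, 422, 480 and 488 CPM in vehicle 1 to 5. Celecoxib 1 lay above all other libraries, and the other 4 celecoxib libraries lay within the range of vehicle. Group means were 480 ± 135 CPM in celecoxib, 401 ± 71.3 CPM in rofecoxib and 427 ± 57 CPM in vehicle (SD, n = 5 each). The log2 fold change for celecoxib against vehicle was 0.17 ± 0.17 (interval -0.19 to 0.53, edgeR adjusted p = 0.728), and -0.01 ± 0.12 without celecoxib 1. With the level of the adipocyte markers as a covariate it was 0.38 ± 0.16 (edgeR adjusted p = 0.619). For rofecoxib against vehicle it was -0.09 ± 0.17 (interval -0.45 to 0.27, edgeR adjusted p = 1). For celecoxib against rofecoxib it was 0.26 ± 0.17 (interval -0.10 to 0.61, edgeR adjusted p = 0.751), with 5 of 5 celecoxib libraries above the rofecoxib median, and 0.07 without celecoxib 1. Among the 6, Ace was the gene for which the deposited counts limited a change most tightly.

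Celecoxib 1 was also the library with the highest level of genes known to respond to glucocorticoids. Ace transcription is known to be raised by glucocorticoids in several cell types, and a list of 10 such responsive genes, Fkbp5, Tsc22d3, Zbtb16, Per1, Pdk4, Klf9, Ddit4, Errfi1, Mt1 and Mt2, was chosen after these data were seen and is used as a description. Its mean was 9.0 log2 CPM in celecoxib 1 and 6.02 to 7.57 in the other 14 libraries. Ace followed it with r = 0.79 and rho = 0.57 over 15 libraries, and with r = 0.48 without celecoxib 1 and r = 0.39 without celecoxib 1 and 3, so the relation rested largely on that library. A relation to the list was not particular to Ace. With group means removed r was 0.77 for Ace, -0.78 for Agtr1b, -0.65 for Ren1, -0.39 for Mas1, -0.33 for Agt, 0.03 for Agtr1a and 0.02 for Agtr2. Without celecoxib 1 and 3 it was -0.10 for Agtr1b, 0.07 for Ren1, 0.27 for Mas1, 0.18 for Agt, 0.65 for Agtr1a and 0.60 for Agtr2. All 10 genes had a positive log2 fold change for celecoxib against vehicle, with a median of 0.90 and 0 of 10 called, and 2 of 10 had one for rofecoxib against vehicle, with a median of -0.17 and 0 of 10 called. The list mean was 7.43 ± 0.956 log2 CPM in celecoxib, 6.48 ± 0.241 in rofecoxib and 6.69 ± 0.503 in vehicle (SD, n = 5 each), and 7.04 ± 0.438 in celecoxib without celecoxib 1 (n = 4). With the list level as a covariate, the log2 fold change of Ace was -0.11 ± 0.12 for celecoxib against vehicle and -0.10 ± 0.13 for celecoxib against rofecoxib. The sign was the reverse of that without the covariate, but each value was smaller than its SE. Celecoxib 1 was highest in both the list and Ace, so the covariate and that library cannot be told apart. Without celecoxib 1 and without the covariate the values were -0.01 and 0.07. The part of these genes in the Ace level was not tested further. By the same measure over all genes of at least 1 CPM, the genes most like Ace were Mocs1, Glul and Sik2, with r of 0.93, 0.92 and 0.90 over 15 libraries.

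**Figure D3:**
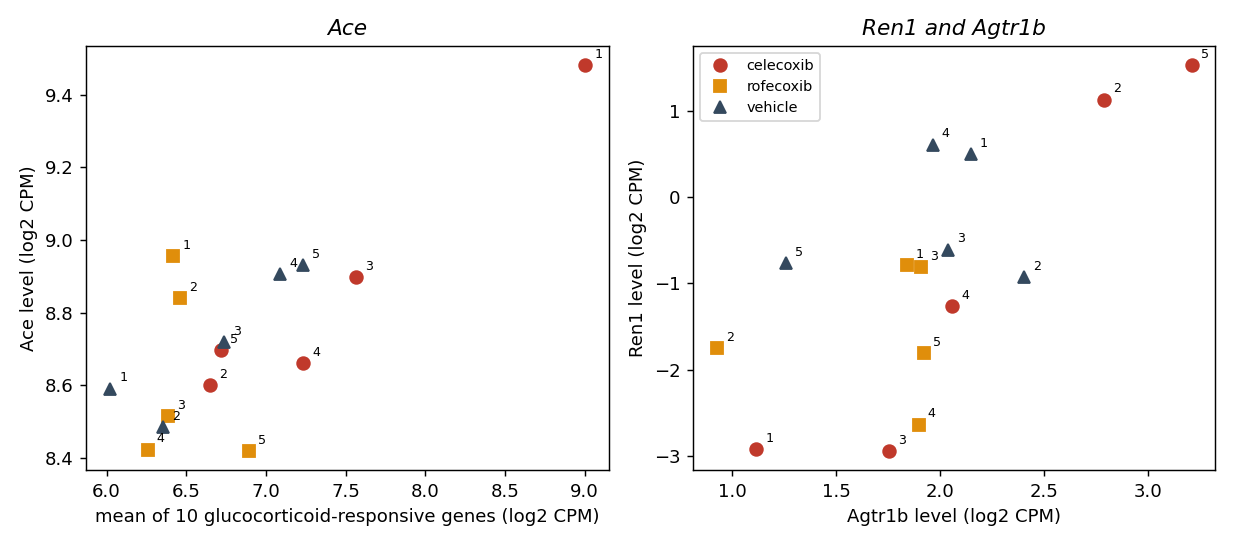
Left, level of Ace in log2 CPM (vertical) against the mean log2 CPM of 10 glucocorticoid-responsive genes (horizontal); right, level of Ren1 (vertical) against Agtr1b (horizontal), both in log2 CPM. Each point is 1 of 15 libraries, numbered by replicate within its group. Celecoxib 1 stands apart at 9.0 on the left, and celecoxib 5 and 2 are highest in both genes on the right.

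Of the type 1 receptor genes, Agtr1a, the main receptor of pressor responses in mice, was high in a few libraries of every group. Agtr1a (chromosome 13, 30428108 to 30474938, mm9) stood at 2.03, 4.18, 1.97, 10.8 and 2.30 CPM in celecoxib 1 to 5. Rofecoxib 1 to 5 had 3.16, 2.14, 4.98, 1.96 and 7.62 CPM, against 2.25, 1.65, 2.92, 7.21 and 2.82 CPM in vehicle 1 to 5. The 5 highest libraries were celecoxib 4, rofecoxib 5, vehicle 4, rofecoxib 3 and celecoxib 2, and the groups overlapped throughout. Means were 4.26 ± 3.77 CPM in celecoxib, 3.97 ± 2.37 CPM in rofecoxib and 3.37 ± 2.20 CPM in vehicle (SD, n = 5 each). The log2 fold change was 0.34 ± 0.55 for celecoxib against vehicle (interval -0.85 to 1.52, edgeR adjusted p = 0.843), 0.24 ± 0.55 for rofecoxib against vehicle (interval -0.95 to 1.42, edgeR adjusted p = 1) and 0.10 ± 0.55 for celecoxib against rofecoxib (interval -1.08 to 1.28, edgeR adjusted p = 0.983). The sign turned without single libraries: to -0.35 against vehicle without celecoxib 4, to -0.13 for rofecoxib without rofecoxib 5, and to -0.60 between the dosed groups without celecoxib 4. Without vehicle 4 the celecoxib value was 0.82 and the rofecoxib value 0.73.

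These were the libraries rich in transcripts of sympathetic neurons, whose cell bodies lie in ganglia beside the thoracic aorta and whose fibres reach its outer coat. The mean level of 7 sympathetic markers, among them Th, Dbh, Npy, Slc6a2, Chrna3 and Stmn2, was 3.18 to 5.92 log2 CPM in celecoxib 2, rofecoxib 3, vehicle 4, rofecoxib 5 and celecoxib 4, and -2.18 to 1.28 in the other 10 libraries. The gap between these ranges, 1.90, was 23.4% of the whole range. Agtr1a stood at 4.18 to 10.8 CPM in those 5 libraries and at 1.65 to 3.16 CPM in the other 10. Over 15 libraries Agtr1a followed the sympathetic level with r = 0.93 and rho = 0.81 (permutation p adjusted over 60 pairs of member and marker list 6e-04 for r, from the smallest p that 100000 resamples give, and 0.0198 for rho). Without celecoxib 4 and rofecoxib 5, the libraries farthest from the median, r was 0.88, and with group means removed 0.93. Within the 10 libraries of lower level r was 0.37 and rho 0.36 (permutation p = 0.294 and 0.309, n = 10), so the relation rested on the 5 libraries of higher level. Among those 5 the order of Agtr1a was that of the sympathetic level (rho = 1, n = 5). The exact two-sided permutation p was 0.0167 over 120 orders, unadjusted, which is the smallest p that 5 libraries allow. Both the split and the order were noticed after the data were seen, so this p describes the order and is not a test of it.

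Markers of Schwann cells, which sheathe such fibres, gave r = 0.85 and rho = 0.79 with Agtr1a (adjusted permutation p 0.0015 and 0.0198; r = 0.80 without the 2 farthest libraries). These were the 2 of the 60 pairs that passed. The genes most like Agtr1a among those of at least 1 CPM were the sodium channel subunit Scn3b, the developmental regulator Eya1 and Vat1l, with r of 0.98, 0.97 and 0.97 over 15 libraries. The mean sympathetic level was close between groups, at 0.97 ± 3.47 log2 CPM in celecoxib, 0.97 ± 3.57 in rofecoxib and 0.92 ± 2.43 in vehicle (SD, n = 5 each), with medians of -0.41, -1.36 and 0.48. In the edgeR fit its 7 markers had a median log2 fold change of 1.29 for celecoxib against vehicle, 7 of 7 positive and 0 called, and 0.98 for rofecoxib against vehicle, 7 of 7 positive and 0 called. With the sympathetic level as a covariate, the log2 fold change of Agtr1a was 0.15 ± 0.20 for celecoxib against vehicle, 0.20 ± 0.20 for rofecoxib against vehicle and -0.04 ± 0.20 for celecoxib against rofecoxib (SE). The standard error of the first was 0.55 without that covariate.

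**Figure D4:**
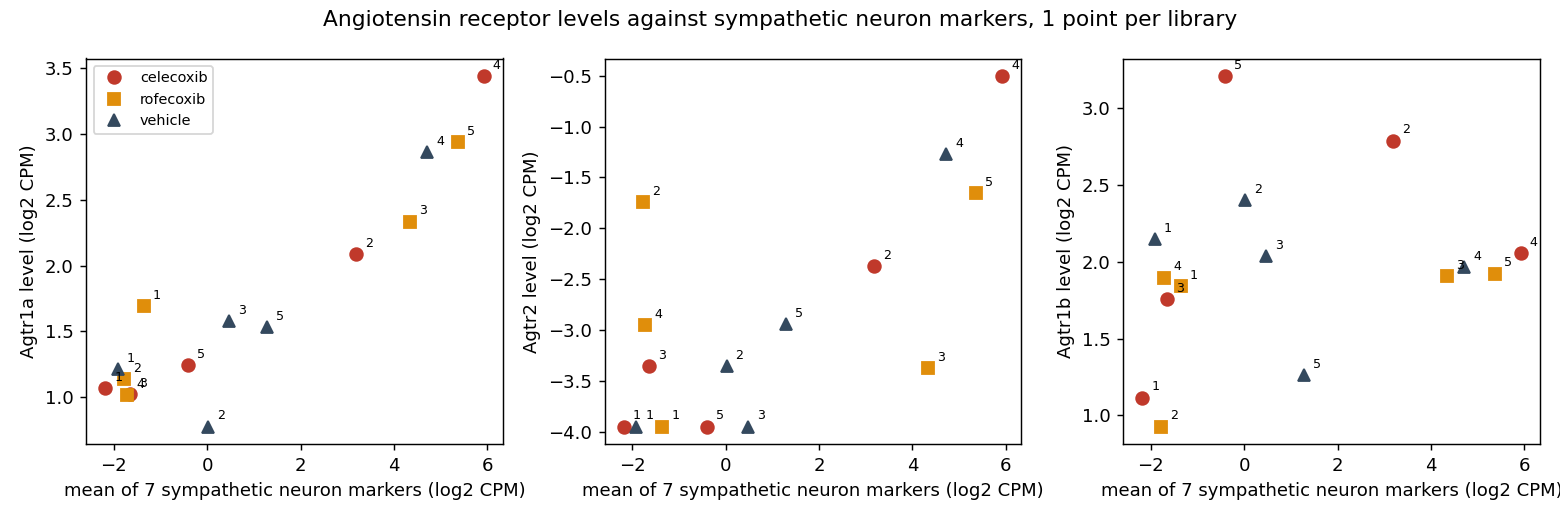
Level in log2 CPM of Agtr1a, Agtr2 and Agtr1b (vertical axes, left to right) against the mean log2 CPM of 7 sympathetic neuron markers (horizontal axes); each point is 1 of 15 libraries, numbered by replicate within its group. Agtr1a is highest in the 5 libraries of 3.18 to 5.92 log2 CPM on the horizontal axis, which come from all groups, whereas Agtr1b shows no such order.

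Agtr1b, the other type 1 receptor gene, did not share this pattern. It (chromosome 3, 20213193 to 20266301, mm9) stood at 2.10, 6.85, 3.31, 4.10 and 9.20 CPM in celecoxib 1 to 5. In rofecoxib 1 to 5 it had 3.52, 1.84, 3.69, 3.66 and 3.73 CPM, against 4.37, 5.23, 4.04, 3.84 and 2.33 CPM in vehicle 1 to 5. Celecoxib 5 and 2 were highest, and all groups overlapped. Its r with the sympathetic level was 0.23 and its rho 0.37 over 15 libraries (permutation p = 0.417 and 0.175, unadjusted), and with Agtr1a r was 0.11 and rho 0.23 (permutation p adjusted over the 21 pairs 0.764 and 0.737). The log2 fold change was 0.37 ± 0.34 for celecoxib against vehicle (edgeR adjusted p = 0.713), -0.27 ± 0.34 for rofecoxib against vehicle (edgeR adjusted p = 1) and 0.64 ± 0.34 for celecoxib against rofecoxib (interval -0.10 to 1.37, edgeR adjusted p = 0.715). Without celecoxib 5 the first was 0.06 and the last 0.32. The value for rofecoxib against vehicle was -0.11 without rofecoxib 2 and -0.41 without vehicle 5.

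The balance of the pair thus varied between animals. Per kilobase, Agtr1b made up 62.1 ± 18.8% of type 1 receptor transcripts in celecoxib, 54.1 ± 11.9% in rofecoxib and 61.8 ± 15.7% in vehicle (SD, n = 5 each), and it ran from 33.0% in celecoxib 4 to 83.8% in celecoxib 5. Exact two-sided permutation tests gave p = 0.976 for celecoxib against vehicle, 0.389 for rofecoxib against vehicle and 0.452 for celecoxib against rofecoxib. The coding sequences of the pair are shown because reads of near-identical genes can be split or lost in counting. They are 1077 bases each and identical at 978 positions, or 90.8%, with a longest identical run of 66 bases, and 33 of 1028 windows of 50 bases, or 3.21%, were the same in both. The first 150 coding bases (GRCm38) are printed with the 10 bases that differ in capitals.
Agtr1a, chromosome 13, 30380954 to 30381103, plus strand: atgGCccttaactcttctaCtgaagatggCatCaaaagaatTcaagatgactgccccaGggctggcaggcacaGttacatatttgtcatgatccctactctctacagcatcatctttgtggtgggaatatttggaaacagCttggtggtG
Agtr1b, chromosome 3, 20316291 to 20316440, minus strand: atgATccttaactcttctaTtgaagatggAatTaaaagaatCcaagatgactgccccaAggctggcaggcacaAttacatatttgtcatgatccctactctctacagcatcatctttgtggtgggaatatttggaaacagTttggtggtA

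How the authors' counting treated reads that fall in the shared windows is not stated in the sources at hand, and the levels of the pair are uncertain to that extent.

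The type 2 receptor was close to the limit of counting. Agtr2 (chromosome X, 21061468 to 21066492, mm9) had 0, 4, 1, 20 and 0 counts in celecoxib 1 to 5. Rofecoxib 1 to 5 had 0, 7, 1, 2 and 8 counts, against 0, 1, 0, 11 and 2 counts in vehicle 1 to 5. It had 0 counts in 5 of 15 libraries, and celecoxib 4 and vehicle 4, the highest, were also among the 5 libraries rich in sympathetic transcripts. Rofecoxib 3, another of those 5, had 1 count, and rofecoxib 2, which was not among them, had 7. Exact two-sided permutation tests of mean log2 CPM gave p = 0.794 for celecoxib against vehicle, 0.643 for rofecoxib against vehicle and 0.960 for celecoxib against rofecoxib. With the sympathetic level r was 0.69 and rho 0.54 (adjusted permutation p 0.0904 and 0.265), and r was 0.48 without celecoxib 4 and rofecoxib 5 and -0.04 within the 10 libraries of lower sympathetic level (permutation p = 0.917). With Agtr1a r was 0.73 and rho 0.38 (adjusted permutation p 0.0421 and 0.380), and r was 0.43 without the 2 farthest libraries. A change of Agtr2 was not detectable at these counts.

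Mas1, the receptor for angiotensin-(1-7), was scarce too, but less uneven. Mas1 (chromosome 17, 13033743 to 13061211, mm9) had 5, 13, 8, 14 and 15 counts in celecoxib 1 to 5. In rofecoxib 1 to 5 it had 7, 9, 5, 14 and 18 counts, against 9, 16, 8, 16 and 8 counts in vehicle 1 to 5. High and low libraries occurred in every group, and the ranges coincided for the most part. The log2 fold change was -0.04 ± 0.38 for celecoxib against vehicle (interval -0.85 to 0.77, edgeR adjusted p = 0.981), -0.11 ± 0.38 for rofecoxib against vehicle (interval -0.92 to 0.71, edgeR adjusted p = 1) and 0.07 ± 0.38 for celecoxib against rofecoxib (interval -0.74 to 0.88, edgeR adjusted p = 0.983).

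Cell type markers gave little further order to the members. Ren1 had its highest r with the fibroblast list, 0.64, and Agt with the mast cell list, 0.63, and neither passed over the 60 pairs (adjusted permutation p 0.143 for each). Ren1 passed with the fibroblast list when the 2 libraries farthest from the median were left out (r = 0.81, adjusted permutation p 0.0214), and Agt passed with the mast cell list when group means were subtracted (r = 0.74, adjusted permutation p 0.0352). The genes most like Ren1 were the imprinted RNA H19, Cd83 and the macrophage metal transporter Slc11a1, with r of 0.93, 0.92 and 0.91 over 15 libraries.

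**Figure D5:**
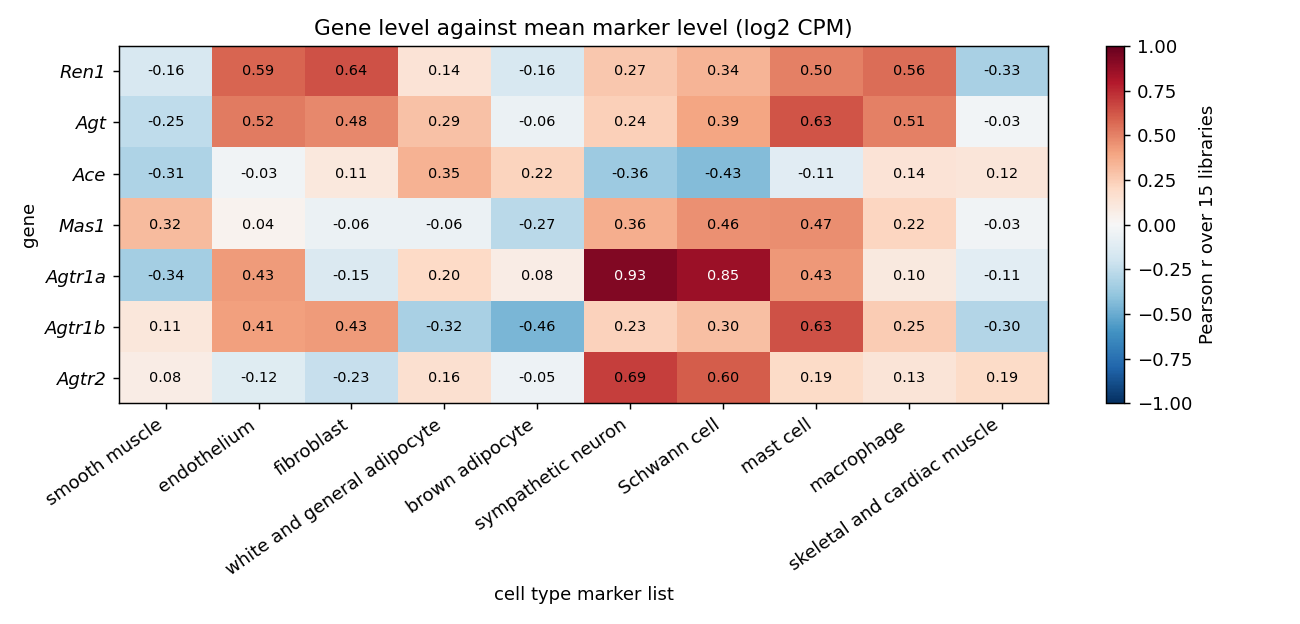
Pearson r over 15 libraries between the level of a gene (rows) and the mean level of a cell type marker list (columns), both in log2 CPM; red is positive and blue negative. Agtr1a stands out in the sympathetic neuron and Schwann cell columns at 0.93 and 0.85, the only pairs of a member and a list that passed.

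The rest of the pathway was described by a list of 42 other genes, of which 41 had a row and 34 were tested. The edgeR test called 0 of the 34 in either direction in each comparison, against 0% of all genes. At an unadjusted p under 0.05 it held 1 of 34 for celecoxib against vehicle and 0 of 34 in each of the other comparisons, with 12.5%, 5.18% and 6.96% of all genes in the 3 comparisons. Median log2 fold changes were 0.02, 0.00 and 0.01, against 0.01, 0.00 and 0.01 over all genes. The gene was Rnpep, aminopeptidase B, which trims basic residues from peptides. It stood at 28.5, 34.3, 31.7, 34.2 and 33.7 CPM in celecoxib 1 to 5, against 39.5, 35.5, 36.5, 39.5 and 37.5 CPM in vehicle 1 to 5. The groups did not overlap, as was so for 1.3% of all genes tested. The log2 fold change was -0.21 ± 0.06 (SE; edgeR adjusted p = 0.269), and DESeq2 gave it an adjusted p of 0.0333. Rofecoxib against vehicle gave -0.10 ± 0.06 (edgeR adjusted p = 0.990).

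The other pathway genes named here were not called either. Atp6ap2 averaged 93.9 ± 4.05 CPM in celecoxib, 91.1 ± 2.24 CPM in rofecoxib and 89.6 ± 3.01 CPM in vehicle (SD, n = 5 each), with a log2 fold change of 0.07 ± 0.04 for celecoxib against vehicle (interval -0.02 to 0.15, edgeR adjusted p = 0.516). Agtrap, whose product binds the type 1 receptor and promotes its internalisation, had 0.07 ± 0.08 in that comparison (edgeR adjusted p = 0.771). Mtus1, which encodes a partner of the type 2 receptor, had 0.18 ± 0.09 (edgeR adjusted p = 0.425). In the aldosterone arm the synthase Cyp11b2 had 0 counts in every library. The mineralocorticoid receptor Nr3c2 had 0.17 ± 0.23 for celecoxib and 0.36 ± 0.23 for rofecoxib against vehicle (edgeR adjusted p = 0.813 and 1). Sgk1, a kinase induced by mineralocorticoids and glucocorticoids, had 0.35 ± 0.20 and 0.24 ± 0.20 (edgeR adjusted p = 0.491 and 1). Mme, neprilysin, which forms angiotensin-(1-7), had -0.34 ± 0.21 and -0.35 ± 0.21 (edgeR adjusted p = 0.534 and 1). Rcan1, a calcineurin inhibitor known to respond to angiotensin II, had -0.18 ± 0.13 and -0.21 ± 0.13 (edgeR adjusted p = 0.589 and 1).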

How the data were processed

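Polyadenylated RNA of 15 aortas was sequenced. The authors deposited whole-number counts per gene with mm9 coordinates; CASAVA 1.8.2, STAR 2.5.2a and mm9 are named in the submitters' processing notes, while for the counter, its use of strand and its annotation the sources used here give nothing. Libraries were built over 3 days per the labels, and the day of a library is not labelled, which leaves no batch to fit. Genes were kept by filterByExpr and scaled by TMM (factors 0.953 to 1.04). A robust edgeR 4.0.16 quasi-likelihood fit in R 4.3.3 covered all 15 libraries with 3 contrasts and Benjamini-Hochberg adjustment over 15134 genes; it was tested on simulated data. DESeq2 1.42.0 and limma-voom 3.58.1, other scalings and filters, covariates, a replicate block and leaving out each library were alternatives. Log2 CPM used a prior count of 2. Exon lengths came from GENCODE M21, matched for 97.07% of genes tested. Correlations used 100000 resamples. Counts of replicates differed by more than sampling noise. The members and lists were chosen with earlier results of these data known. Named genes were the members, the 4 other pathway genes of smallest p in each comparison against vehicle, Agtr1b, Atp6ap2, Ren2 and Agtrap, and the 3 genes most like each member. A gene that this rule also named is not reported here. Figures were drawn with matplotlib.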

Additional observations from a re-analysis of the deposited data

Results flagged for a closer look

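In 6 of the 45 groups of 5 libraries (15 genes in 3 groups) 1 library stood apart from the other 4 by Dixon's test at the 95% level. Chance flags about 1 in 20 groups only where values are independent and normally distributed. The test was run on CPM, whose distribution was not checked, and celecoxib 4 and vehicle 4 were each flagged for both Agtr1a and Agtr2. The count of flags therefore cannot be set against that rate. Ace reached 715 CPM in celecoxib 1, where the next celecoxib library had 477. Agtr1a reached 10.8 CPM in celecoxib 4, next to 4.18, and 7.21 CPM in vehicle 4, next to 2.92. Agtr2 reached 0.641 CPM in celecoxib 4, next to 0.129, and 0.349 CPM in vehicle 4, next to 0.0657; these are 20 and 11 counts. Agtr1b stood at 1.84 CPM in rofecoxib 2, below the next rofecoxib library at 3.52.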

How the results depend on the processing

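The count of members called was 0 in each comparison under every alternative run, among the members that each run tested. The stricter filter left 3 members to test, without Ren1 and Mas1. Mas1 was also absent from the fit of rofecoxib and vehicle alone, and DESeq2 gave some members no adjusted p. Of the 60 pairs of member and marker list, 2 passed, 2 with a prior count of 0.5, and 3 with group means subtracted or without the 2 farthest libraries, where Agt with mast cell or Ren1 with fibroblast markers was added. Over all genes, celecoxib against vehicle gave 126 calls with DESeq2 and 0 to 8 when 1 library was left out (8 without celecoxib 4, 2 without vehicle 2, 1 without celecoxib 5); celecoxib against rofecoxib gave 19 with DESeq2 and 0 to 1 when 1 was left out (1 without celecoxib 5). Signs of log2 fold changes that no fit called did turn, and the cause was not tested. For celecoxib against vehicle these were Ren1 (-0.86 with limma-voom, -0.12 with the replicate block), Ace (-0.11 with the glucocorticoid covariate, added after seeing the data), and Mme (0.027) and Nr3c2 (-0.081) with the adipocyte covariate. For rofecoxib against vehicle Ace was 0.021 with the adipocyte covariate. For celecoxib against rofecoxib Ace was -0.10 with the glucocorticoid covariate, and Agtr1a -0.052 with limma-voom, -0.16 with the replicate block and -0.044 with the sympathetic covariate. Leaving out 1 library gave, for celecoxib against vehicle, ranges of -0.0075 to 0.25 for Ace, -0.35 to 0.82 for Agtr1a, -0.41 to 0.62 for Ren1 and -0.16 to 0.15 for Mas1. For rofecoxib against vehicle it gave -0.13 to 0.73 for Agtr1a, -0.36 to 0.083 for Mas1 and -0.0024 to 0.079 for Agtrap. For celecoxib against rofecoxib it gave -0.60 to 0.48 for Agtr1a and -0.11 to 0.33 for Mas1. Replicate numbers did not pair the samples: deviations of same-numbered libraries correlated between -0.72 and 0.78, and 4 of 15 libraries correlated best with their own number. The replicate block called 0 genes in each comparison. Depth limits Agtr2 and Mas1, whose counts per library reached 20 and 18 at most.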

Other observations

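The genes most like the remaining members over the 15 libraries, among genes of at least 1 CPM, were of mixed kinds. Here, and for Ace, Agtr1a and Ren1 above, they are the 3 highest r among 11998 or 11999 genes compared. Whether so many genes would give such r by chance was not tested, so the names are descriptions only. For Agt they were Zmynd15, the prostaglandin E2 receptor gene Ptger3 and Rergl, with r of 0.79, 0.76 and 0.71. For Agtr1b they were the tendon and fibre regulator Mkx, the carboxypeptidase Cpb1 and the collagen Col8a1, with r of 0.93, 0.92 and 0.92. For Mas1 they were Nubp1, Abhd8 and Brsk1, with r of 0.84, 0.80 and 0.79.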
